A study of Rattus norvegicus with 192 samples.

Results

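Pituitary RNA of rats dosed with the antibiotic vancomycin was compared with that of rats given the vehicle alone. The members were chosen by title: the 12 libraries titled as vancomycin without PFOS, P13 to P24, and the 12 titled as control, P1 to P12. These are 24 of the 192 libraries of the series, and none of the 24 fell under the minimum of 100000 counts. The rats were adult wild-type males of the outbred stock Crl:CD(SD), dosed by gavage once a day on 7 days that ended at postnatal day 62. Vehicle rats received corn oil, and vancomycin rats received 8 mg vancomycin per kg body weight and day. In what liquid the vancomycin was given is not stated in the labels. The other 24 pituitary libraries came from rats on 3 mg/kg per day of the surfactant PFOS (perfluorooctane sulfonate), alone or with the same vancomycin dose (12 each), and they give a second vancomycin contrast in libraries of their own. The labels give no information on whether each library was 1 rat, so p-values measure the spread between libraries. Each treatment filled a plate row of its own, so treatment and row cannot be told apart.

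The pituitary is the gland through which the brain controls growth, reproduction, stress hormones and the thyroid. Somatotropes make growth hormone, lactotropes prolactin, corticotropes and the melanotropes of the intermediate lobe the precursor pro-opiomelanocortin, thyrotropes thyrotropin, and gonadotropes luteinizing and follicle-stimulating hormone. Thyrotropin and both gonadotropins share 1 alpha chain, and releasing hormones from the hypothalamus and feedback from target glands set the output of each cell type. Vancomycin is a glycopeptide that blocks cell wall synthesis of Gram-positive bacteria, and little of it is absorbed when it is swallowed, so oral dosing is widely used to deplete gut bacteria.

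The assay was 3' bulk RNA barcoding, in which the RNA of each well is tagged during reverse transcription by a 6-base barcode and then pooled. Vehicle wells P1 to P5 carried barcodes of another base composition than the other pituitary wells, and these sequences are shown because the only called gene of the comparison differed between the 2 kinds of vehicle well. They are written 5′ to 3′ with G and C in capitals, with P6 and P7 as the next vehicle wells and P13 and P14 as the first vancomycin wells.
P1: GGaCat
P2: GtCaaG
P3: tCCaaC
P4: ttGtCC
P5: CtCtCC
P6: aCCCGG
P7: aCGCGC
P13: CCCCaC
P14: CCCGaG
Barcodes P1 to P4 held 3 G or C bases and P5 held 4, while each of the other 43 pituitary barcodes held 5. Results are therefore given against all 12 vehicle libraries and, for the calls and a part of the values, also against the 7 vehicle libraries P6 to P12. Where no vehicle set is named, all 12 were used.

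Total counts had a median of 376310 in vehicle (303936 to 948968) and 601961 in vancomycin libraries (258869 to 846095). The geometric mean was 1.295 times higher with vancomycin, which did not pass a two-sided permutation test (p = 0.0634). Transcripts of growth hormone, a defining product of the gland, took up 30.9 ± 5.02% of vehicle counts (mean ± SD, n = 12). Thyroglobulin (Tg), the scaffold of thyroid hormone synthesis, had 0 counts in every vehicle library and at most 1.85 CPM (counts per 1000000 of the library total after TMM scaling, which corrects for library composition) in a vancomycin library. On a principal component analysis of the 24 libraries, the first component ran from the shallowest library, P21, to the deepest, P7. The second component set wells P1 to P5 apart from every other library.

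**Figure D1:**
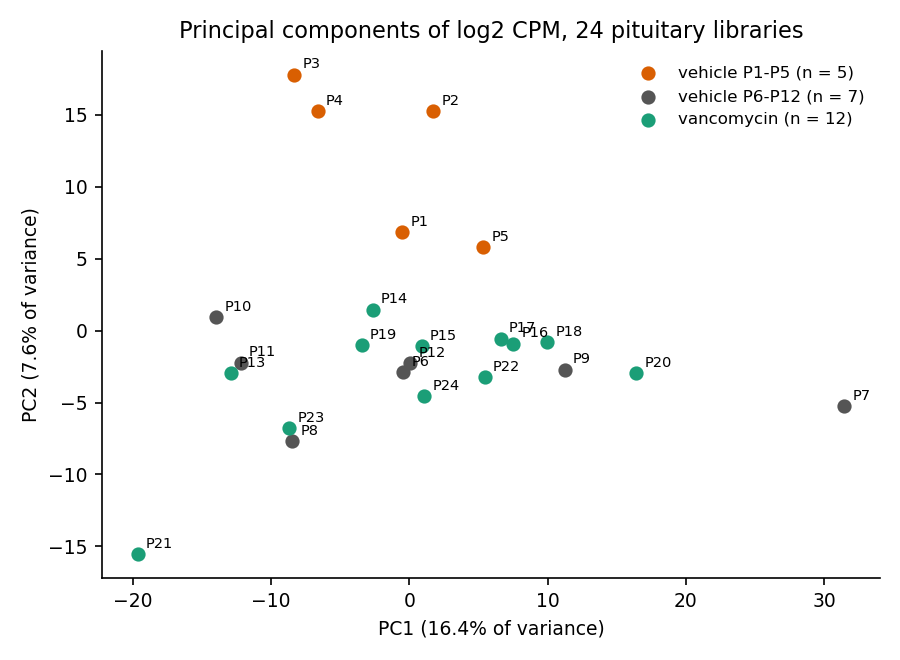
Scores of the 24 pituitary libraries on the first 2 principal components of log2 CPM over 4380 genes, 1 point per library, coloured by group. Vehicle wells P1 to P5 lie between 5.81 and 17.8 on PC2, and the other 19 libraries lie at or below 1.46, with vancomycin and vehicle P6 to P12 intermixed.

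With vancomycin, 1 of 4380 genes tested changed at an adjusted p under 0.05 (0.0228%). That gene was Arpc4, a subunit of the Arp2/3 complex that nucleates branched actin filaments, and it fell by 0.67 ± 0.13 on the log2 scale (SE, adjusted p = 0.0224). Without adjustment, 205 genes had p under 0.05, 65 of them higher and 140 lower. The median log2 fold change over all genes was -0.01. For 4278 genes (97.7%) the 95% interval of the difference lay within 2-fold in both directions, and for 3309 (75.5%) within 1.5-fold. A gene that missed the threshold is not thereby shown to be equal between the groups, and its interval gives the size of difference that remained possible. In bulk tissue a lower count can come from fewer cells of a type or from less RNA per cell, and these cannot be told apart. Against vehicle P6 to P12 alone, 0 of 4846 genes passed (0%), and the smallest adjusted p was 0.876. There, 160 genes had an unadjusted p under 0.05, 70 of them higher and 90 lower. Intervals lay within 2-fold for 92.9% of the genes in that comparison and within 1.5-fold for 56.5%.

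None of the 7 hormone transcripts passed the test. Growth hormone (Gh1) made up 19.4% to 37.9% of counts in vehicle libraries, with a median of 32.3%. In vancomycin libraries its share ran from 24.8% to 35.96% around a median of 27.7%, inside the vehicle range. The log2 difference was -0.21 ± 0.13, with a 95% interval from -0.46 to 0.05. Prolactin (Prl) took a median share of 4.49% in vehicle (3.19% to 5.97%) and 4.45% with vancomycin (3.19% to 5.83%), a log2 difference of -0.10 ± 0.13. The 7 hormones together made up 39.6 ± 3.80% of vehicle counts and 36.9 ± 2.49% of vancomycin counts (n = 12 each). All 7 log2 differences, taken after TMM scaling, were below 0, between -0.21 and -0.05, while 46.6% of all genes lay above 0. Without that scaling, the mean shares of the thyrotropin, luteinizing hormone and follicle-stimulating hormone beta chains were higher with vancomycin. The mean shares of the other hormones were lower. A share is taken from a fixed total, so the hormones are not independent of each other.

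Pro-opiomelanocortin (Pomc), the precursor of corticotropin and melanotropin, varied most between libraries among the 7 hormones. Its level ran from 1570 to 33854.5 CPM in vehicle (median 8167) and from 2603 to 12414 CPM with vancomycin (median 9119). The highest value belonged to a single vehicle library, P7, and the log2 difference of -0.20 ± 0.35 turned to 0.16 when that library was left out. Vehicle library P9 (16309 CPM) also lay above every vancomycin library and P1 (1570 CPM) below every one, and the remaining vehicle libraries lay within the vancomycin range. The log2 difference against vehicle P6 to P12 was -0.48 ± 0.39, with an interval from -1.26 to 0.30, the only one of the 7 hormone intervals there that reached beyond 2-fold.

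The thyrotropin beta chain (Tshb), through which the pituitary drives the thyroid, had a median of 7033 CPM in vehicle (3579 to 13894) and 7725 CPM with vancomycin (3695 to 9913). Its log2 difference was -0.05 ± 0.22, with an interval from -0.49 to 0.40. The common alpha chain (Cga) stood at a median of 19987 CPM in vehicle (13733 to 29454) and 19618 CPM with vancomycin (13926 to 24774), a log2 difference of -0.11 ± 0.12. The vancomycin libraries lay inside the vehicle range for both chains, and vehicle libraries P1, P8 and P9 (Tshb) and P1 and P8 (Cga) lay above every vancomycin library. The luteinizing hormone beta chain (Lhb) differed by -0.05 ± 0.13 and the follicle-stimulating hormone beta chain (Fshb) by -0.07 ± 0.24. Fshb was again highest in P7, at 1508 CPM against 247 to 593 CPM in the other vehicle libraries and 298 to 759 CPM with vancomycin. Without P7 its log2 difference was 0.24 in place of -0.07.

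**Figure D2:**
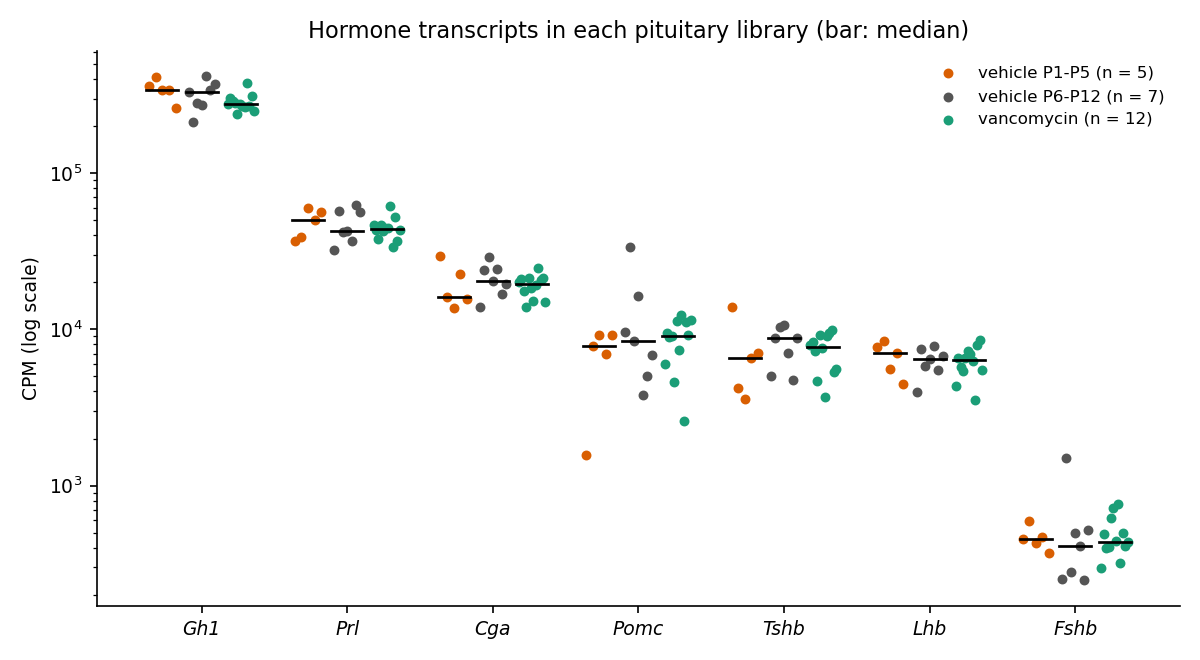
Level of 7 hormone transcripts in each of the 24 libraries, in CPM on a log axis, for vehicle wells P1 to P5, vehicle wells P6 to P12 and vancomycin, with black bars at the medians. The vancomycin points lie within the vehicle range for most genes, and vehicle library P7 stands alone for Pomc (33854.5 CPM) and Fshb (1508 CPM).

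Receptors that carry hypothalamic and feedback signals were tested for 7 of the 21 listed in the table, and none passed. The growth hormone-releasing hormone receptor (Ghrhr) was at 160 ± 41.5 CPM in vehicle and 135 ± 36.5 CPM with vancomycin, a log2 difference of -0.22 ± 0.16. The thyrotropin-releasing hormone receptor (Trhr) was at 20.6 ± 6.85 and 16.8 ± 4.86 CPM, a log2 difference of -0.33 ± 0.25. Dopamine receptor D2 (Drd2), which holds prolactin release in check, was at 32.3 ± 4.72 and 42.2 ± 14.2 CPM. Its log2 difference was 0.37 ± 0.19 (unadjusted p = 0.0517, adjusted p = 0.9997), and it was 0.36 ± 0.23 against vehicle P6 to P12. The gonadotropin-releasing hormone receptor (Gnrhr) differed by 0.04 ± 0.19. The receptor for corticotropin-releasing hormone (Crhr1) had 21 counts over the 12 vehicle libraries and 24 over the 12 vancomycin libraries, too few for the test.

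Of 18 lineage transcription factors in the table, 5 were tested and 0 passed. Pou1f1, which defines the somatotrope, lactotrope and thyrotrope lineages, was at 360 ± 42.9 CPM in vehicle and 385 ± 51.6 CPM with vancomycin. Its log2 difference of 0.11 ± 0.08 had an interval from -0.05 to 0.26, so a change of the factor by as much as 1.5-fold lies outside it. Tbx19, the corticotrope and melanotrope factor that switches on Pomc, differed by 0.11 ± 0.14. Nr5a1, the gonadotrope factor, had 3 counts in all vehicle libraries and 0 in all vancomycin libraries, and Pax7, a melanotrope factor, had 0 in both groups. At this depth neither could be compared. Six6, a factor of early gland development, had the widest interval of the 5, from -1.15 to 0.53.

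Genes of thyroid hormone action were tested for 10 of 22 in the table, and 0 passed, with a median log2 difference of 0.04. Deiodinase 2 (Dio2), which makes the active hormone T3 inside the gland, was at 40.1 ± 15.8 CPM in vehicle and 36.3 ± 10.2 CPM with vancomycin, a log2 difference of -0.16 ± 0.20. The receptor Thrb, through which T3 represses thyrotropin, differed by 0.05 ± 0.19. Transthyretin (Ttr), a thyroid hormone carrier, had an interval from -1.94 to 0.72, the only one of the 10 that reached beyond 2-fold. Deiodinase 1 (Dio1) and the receptor Thra had 43 and 93 counts over the vehicle libraries and 36 and 98 over the vancomycin libraries, and did not pass the filter.

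Granins and the enzymes that cut prohormones were tested for 19 of 24, with 0 called and a median log2 difference of -0.03. Every interval lay within 2-fold against all 12 vehicle libraries, and 18 of 19 did against P6 to P12. Chromogranin B (Chgb) was at 1587 ± 183 CPM in vehicle and 1529 ± 264 CPM with vancomycin, a log2 difference of -0.06 ± 0.08. Secretogranin 2 (Scg2) differed by 0.01 ± 0.08, with an interval from -0.14 to 0.16. Both are cargo proteins of secretory granules. Chromogranin A (Chga) had a wider interval, from -0.92 to 0.36, around -0.28 ± 0.32. Vehicle library P7 held 1040 CPM of Chga, against a vehicle median of 220 CPM, and without it the log2 difference was 0.13.

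**Figure D3:**
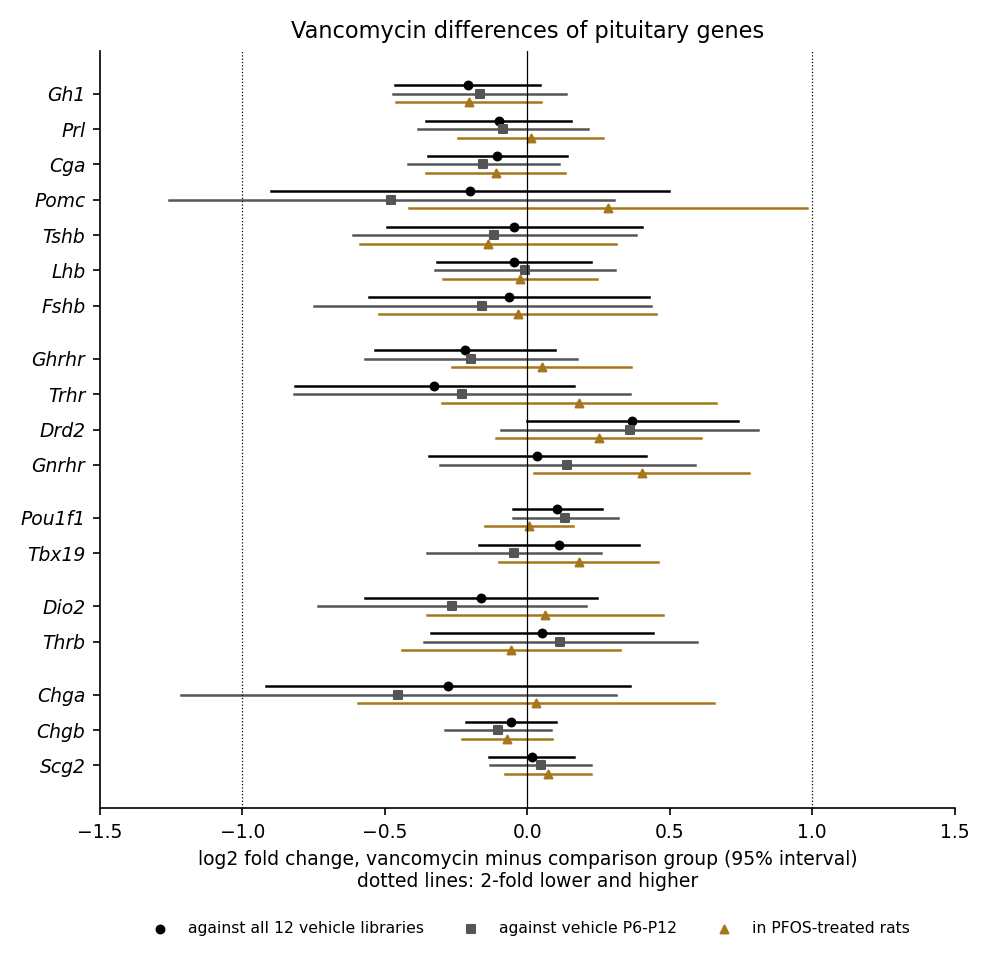
Log2 fold changes with 95% intervals for 7 hormones, 4 receptors, the lineage factors Pou1f1 and Tbx19, the thyroid hormone genes Dio2 and Thrb, and 3 granins, as vancomycin against all 12 vehicle libraries (circles), against the 7 vehicle libraries P6 to P12 (squares) and in PFOS-treated rats (triangles). Dotted lines mark 2-fold. The intervals of Pomc and Chga against P6 to P12 reach below the lower line, to -1.26 and -1.21, and the other intervals drawn lie between the lines.

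The 28 gene lists with a tested member held 0 called genes. Among lists of the secretory and metabolic machinery, endoplasmic reticulum folding and stress genes were tested for 20 of 24 members, with a median log2 difference of 0.02. The 37 cytosolic ribosomal proteins had a median of -0.06, the 32 subunits of oxidative phosphorylation -0.02 and the 25 proteasome subunits -0.00. The intervals of all ribosomal, respiratory and proteasome genes tested lay within 2-fold against all 12 vehicle libraries. Against P6 to P12 the same held for 36 of the 37 ribosomal genes and for all respiratory and proteasome genes. Cholesterol synthesis (18 of 25 tested) had a median of -0.08, fatty acid oxidation (16 of 22) -0.04 and the cell cycle (5 of 24) -0.04. Against P6 to P12 these medians were 0.04, -0.01 and 0.01, with 6 cell cycle genes tested there. Acat2, an acetyl-CoA acetyltransferase, was at 63.9 ± 16.3 CPM in vehicle and 79.2 ± 13.8 CPM with vancomycin (log2 difference 0.28 ± 0.12, unadjusted p = 0.0219, adjusted p = 0.997). Cpt1a, which moves fatty acids into mitochondria, differed by -0.42 ± 0.19 against all vehicle libraries and by -0.10 ± 0.21 against P6 to P12.

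Against all 12 vehicle libraries, medians of the signalling, stress and immune lists ran from -0.12 to 0.25, beside -0.01 for all genes. Glucocorticoid-responsive genes (11 of 17 tested) had a median of 0.03, clock genes (3 of 17) 0.06 and gonadotrope signalling (4 of 16) -0.12. Against P6 to P12, 5 clock genes were tested, with a median of 0.34 and 0 called. Immediate early genes and ERK phosphatases (5 of 25 tested) had a median of 0.25, led by Nr4a1 at 0.47 ± 0.40 and Btg2 at 0.45 ± 0.19 (adjusted p = 0.938 for Btg2). The inflammatory and acute-phase list (6 of 27 tested) had a median of 0.07 and the interferon and antigen presentation list (15 of 29) -0.04. Ifi27, an interferon-induced gene, ran from 266 to 1395 CPM in vehicle and from 263 to 1146 CPM with vancomycin, and its log2 difference was -0.41 ± 0.28. Targets of NRF2 in oxidative stress (16 of 21 tested) had a median of -0.01. Heat shock proteins, the chaperones that refold damaged proteins (12 of 16 tested), had a median of 0.13, with 9 of the 12 above 0 beside 46.6% of all genes. In PFOS-treated rats 1 of the same 12 was above 0 with vancomycin, beside 52.7% of all genes, and the median was -0.04. Among them Dnajb1 differed by 0.38 ± 0.23 and Hspa8, the constitutive HSP70, by 0.15 ± 0.10.

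The summed markers of other cell types overlapped between the groups in every list, and 0 of their tested members passed. Summed over each list, macrophage markers were at 615 ± 120 CPM in vehicle and 607 ± 104 CPM with vancomycin, and stem and folliculostellate markers at 1124 ± 144 and 1241 ± 185 CPM. Fibroblast and pericyte markers were at 1009 ± 256 and 1081 ± 142 CPM, and endothelial markers at 141 ± 28.9 and 148 ± 11.2 CPM. Pituicyte and glial markers of the posterior lobe were at 165 ± 17.9 and 176 ± 18.3 CPM, and lymphocyte markers at 13.8 ± 9.76 and 12.1 ± 6.17 CPM with no member deep enough for a test. Hypothalamic neuropeptides summed to 664 ± 210 and 619 ± 109 CPM, of which vasopressin (Avp) was at 5.80 ± 3.48 and 7.11 ± 3.63 CPM. Blood cell markers, mostly globins, were at 11525 ± 2879 CPM in vehicle and 10728 ± 5015 CPM with vancomycin. The 7 blood genes tested had a median log2 difference of -0.20, and of -0.04 against P6 to P12. In wells P1 to P5 all 7 were higher than in P6 to P12, by a median of 0.42, beside 45.6% of all genes. Of the 7, 0 passed between the 2 kinds of vehicle well and 0 passed the vancomycin test. Markers of liver, thyroid and brain were tested for 3 genes, with a median of -0.09 and 0 called.

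The 10 genes of smallest p in the comparison were Arpc4, Srebf2, Dnajb9, Wdr83, Chordc1, Ndufb7, Dtx3l, Ptp4a2, Mgmt and Banp. Only Arpc4 passed the adjusted test, and the adjusted p of the other 9 ran from 0.338 to 0.765. The differences between the 2 kinds of vehicle well are given beside those with vancomycin, and both contrasts share the vehicle libraries, so they are not independent. Srebf2, a master regulator of sterol synthesis, differed by -0.70 ± 0.17 with vancomycin against all vehicle libraries and by -0.28 ± 0.19 against P6 to P12. It was at 58.8 to 96.7 CPM in P1 to P5, at 25.5 to 54.5 CPM in P6 to P12 and at 22.6 to 46.3 CPM with vancomycin, and it differed by 0.87 between the 2 kinds of vehicle well (adjusted p = 0.0138). Dnajb9, a chaperone of the endoplasmic reticulum, differed by -0.68 ± 0.17 and by -0.17 ± 0.14 in the same 2 contrasts, and it was higher by 1.01 in P1 to P5 than in P6 to P12. Ptp4a2, a tyrosine phosphatase, differed by -0.80 ± 0.24 and by 0.17 ± 0.19, and was higher by 1.73 in P1 to P5. Wdr83 differed by -0.73 ± 0.20 and by -0.14 ± 0.18, and was higher by 1.16 in P1 to P5. For Srebf2, Dnajb9 and Ptp4a2 the mean of P1 to P5 was the highest of the 3 sets, and vancomycin libraries overlapped P6 to P12. Dtx3l, a ubiquitin ligase, differed by -0.71 ± 0.21 and by -0.40 ± 0.23, and by 0.68 between the 2 kinds of vehicle well (adjusted p = 0.472).

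For 4 other genes of the 10 the difference was nearly as large against P6 to P12 as against all vehicle libraries. Chordc1, a co-chaperone of HSP90, was at 35.2 to 90.8 CPM in vehicle (median 49.8) and at 54.1 to 167 CPM with vancomycin (median 69.4). Its log2 difference was 0.59 ± 0.17 against all vehicle libraries (adjusted p = 0.677) and 0.57 ± 0.20 against P6 to P12 (adjusted p = 0.876 or above for every gene there), and 11 of 12 vancomycin libraries lay above the vehicle mean. Ndufb7, a subunit of respiratory complex I, was at 241 to 309 CPM in vehicle (median 254) and 177 to 246 CPM with vancomycin (median 222), with 12 of 12 below the vehicle mean. It differed by -0.24 ± 0.07 and by -0.22 ± 0.08 in the 2 contrasts. Mgmt, a DNA repair enzyme, differed by -0.40 ± 0.12 and by -0.43 ± 0.15, and Banp, a DNA-binding protein, by 0.60 ± 0.19 and by 0.57 ± 0.22. None of the 4 passed the adjusted test in either contrast, and their groups overlapped.

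Arpc4 was at 269, 318, 240, 325 and 261 CPM in vehicle wells P1 to P5. In P6 to P12 it ran from 124 to 287 CPM with a median of 155. With vancomycin it ran from 106 to 163 CPM with a median of 140, so every vancomycin library lay under every one of P1 to P5. Of P6 to P12, 5 libraries lay within the vancomycin range and 2, P6 and P10, above it. The log2 difference of -0.67 ± 0.13 had an interval from -0.93 to -0.40, and all 12 vancomycin libraries lay under the vehicle mean. Against P6 to P12 the log2 difference was -0.33 ± 0.13, with an interval from -0.59 to -0.06 (unadjusted p = 0.0164, adjusted p = 0.9996). The call was lost when any 1 of vehicle libraries P1, P2, P3, P4, P5 and P10, or any 1 of vancomycin libraries P19, P22, P23 and P24, was left out. Neighbouring genes on the RefSeq assembly GRCr8 are Tada3 and Ttll3.

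**Figure D4:**
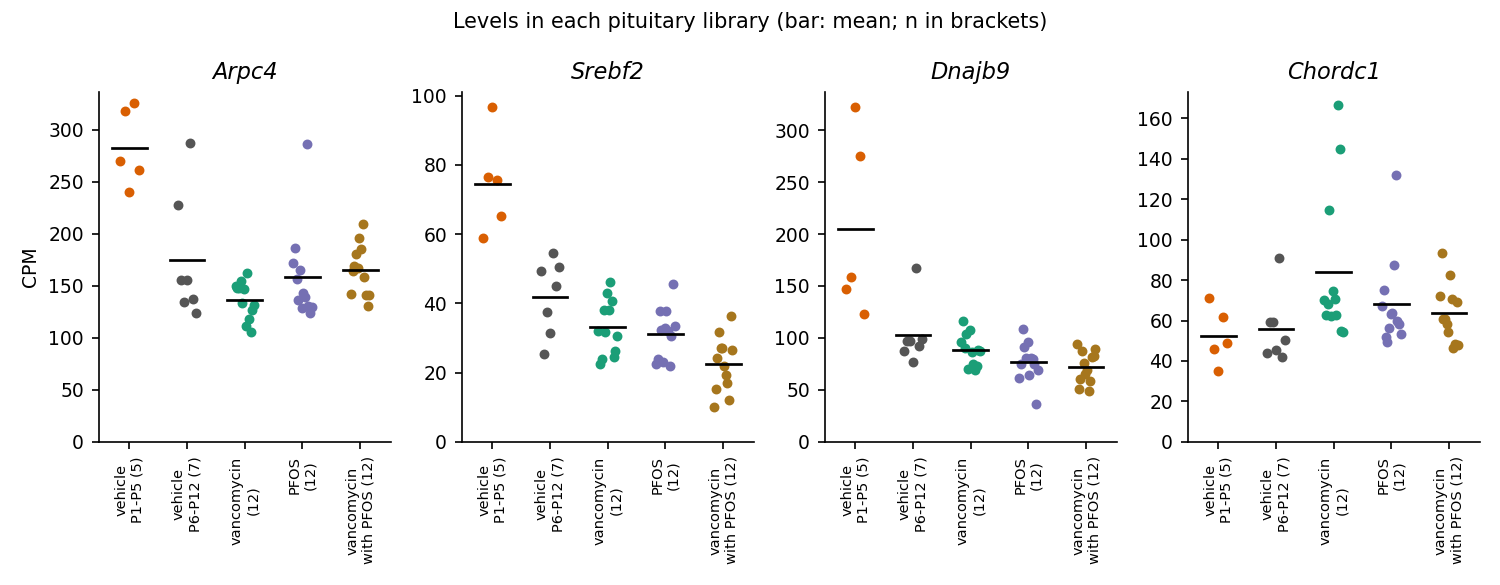
Level of 4 of the genes of smallest p in each of the 48 pituitary libraries, in CPM, with black bars at the group means. The means of Arpc4, Srebf2 and Dnajb9 are highest in vehicle wells P1 to P5 (Arpc4 283 CPM), while Chordc1 averages 52.5 CPM in P1 to P5 and 55.9 CPM in P6 to P12 and reaches 167 CPM with vancomycin.

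The same vancomycin dose in PFOS-treated rats, tested between the 2 other pituitary groups, changed 0 of 4380 genes (0%). In that contrast 122 genes had an unadjusted p under 0.05, the smallest adjusted p was 0.9999, and 99.0% of intervals lay within 2-fold. Arpc4 was at 158 ± 44.95 CPM with PFOS and 165 ± 24.5 CPM with both compounds (n = 12 each), a log2 difference of 0.09 ± 0.13 with an interval from -0.18 to 0.35. Chordc1 differed by -0.09 ± 0.16, Ndufb7 by -0.07 ± 0.07, Mgmt by -0.14 ± 0.12 and Banp by 0.31 ± 0.18. Srebf2 differed by -0.42 ± 0.19 (unadjusted p = 0.0300), the only one of the 10 genes above with an unadjusted p under 0.05 in this contrast. Growth hormone differed by -0.21 ± 0.13, and by -0.12 ± 0.10 without library P48 of the combined treatment, the deepest of the 48 with 2804779 counts, where Gh1 was at 84780 CPM against 234812 to 381060 CPM in the other 11. Pomc differed by 0.28 ± 0.35. Thyrotropin beta differed by -0.14 ± 0.22. None of these passed.

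The difference between the 2 vancomycin contrasts, tested as an interaction, passed for 0 of 4380 genes (0%), with 134 at an unadjusted p under 0.05. Arpc4 had the smallest p (0.000168, adjusted p = 0.735), with an interaction of 0.75 ± 0.19. It passed when PFOS library P33 was left out, the only 1 of the 24 PFOS-treated libraries whose removal gave a call. Srxn1, which repairs oxidized peroxiredoxins, differed by 0.61 ± 0.27 without PFOS and by -0.65 ± 0.27 with it, and its interaction of -1.26 ± 0.38 did not pass (adjusted p = 0.9996). Vehicle wells P1 to P5 enter the interaction as well.

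Within vehicle, wells P1 to P5 against P6 to P12 gave more calls than vancomycin did. Of 5034 genes tested, 73 passed (1.45%), 72 higher and 1 (Trim35) lower in P1 to P5. The smallest p belonged to Necap1, a protein of clathrin-coated vesicles, at 385 ± 88.3 CPM in P1 to P5 (n = 5) and 140 ± 36.3 CPM in P6 to P12 (n = 7). It was at 165 ± 25.4 CPM with vancomycin, 119 ± 24.6 with PFOS and 136 ± 28.3 with both (n = 12 each). Mrpl51, a mitochondrial ribosomal protein, was at 340 ± 80.6 and 110 ± 47.4 CPM in the 2 kinds of vehicle well. Cisd2, an iron-sulfur protein, was at 544 ± 152 and 194 ± 48.7 CPM. Arpc4 was among the 73, higher by 0.71 ± 0.15 in P1 to P5 (adjusted p = 0.00301). The hormones were not among them. Gh1 differed by 0.10 ± 0.18, and Pomc by -0.79 ± 0.50, with an interval from -1.80 to 0.21 that was centred farthest from 0 of the 7. With only libraries of at least 500000 counts, 13 genes passed, but that leaves 1 of P1 to P5 against 2 of P6 to P12 and takes the spread almost wholly from the other groups.

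Barcodes of unequal composition also occurred within 1 treatment in the other tissues, and these comparisons were added after the pituitary values had been seen. In liver, which carries the pituitary barcodes in the same order, 5 vehicle libraries with fewer G and C bases were set against 4 with 5, and 0 of 3814 genes passed (0%). In hypothalamus, 7 libraries of the combined treatment with 1 G or C base were set against 4 with 3, and 237 of 7342 genes passed (3.23%). In thyroid, 7 with 1 such base were set against 5 with 2 or 3, and 222 of 5649 passed (3.93%). Of the 72 genes higher in pituitary wells P1 to P5, 47 were tested in liver and 46 of them had a higher level with fewer G and C bases, beside 49.0% of all genes. In hypothalamus 70 of 72 and in thyroid 72 of 72 were higher with fewer, 33 and 52 of them past the test, beside 45.3% and 49.0% of all genes. In each tissue the libraries with fewer such bases also carried the lower library numbers of their treatment. Barcode and library number therefore cannot be told apart within these comparisons.

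The vehicle libraries of hypothalamus and thyroid that carry the numbers 1 to 5 and 6 to 12 give the same split of numbers with barcodes that all hold 1 G or C base. There, 0 of 7198 genes in hypothalamus (0%) and 0 of 5649 in thyroid (0%) passed, with 255 and 117 at an unadjusted p under 0.05. Of the 72 genes, 20 in hypothalamus and 29 in thyroid had a higher level in numbers 1 to 5, beside 51.4% and 46.96% of all genes, with median log2 differences of -0.08 and -0.03. Hypothalamus and thyroid use the same barcodes for the same numbers, so the 2 tissues are not independent in their barcodes.

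Arpc4 was higher with fewer G and C bases in these comparisons of hypothalamus and thyroid, and it did not pass the test in liver. Scaled to each library's whole count, it averaged 2086 ± 608 CPM (n = 7) with 1 G or C base and 543 ± 275 CPM (n = 4) with 3 in hypothalamus of the combined treatment, a log2 difference of 1.96 ± 0.42 (edgeR adjusted p = 0.00182). In thyroid of that treatment it averaged 1303 ± 463 CPM (n = 7) with 1 and 274 ± 118 CPM (n = 4) with 3, and the comparison with the 5 of more bases gave 1.93 ± 0.36 (edgeR adjusted p = 0.000261). In vehicle liver it averaged 120 ± 50.2 CPM (n = 4) with 3 and 64.2 ± 5.15 CPM (n = 4) with 5, and the comparison of the 5 with fewer bases gave 0.74 ± 0.25 (edgeR adjusted p = 0.999). Between numbers 1 to 5 and 6 to 12 at 1 G or C base, its log2 difference was 0.30 ± 0.43 in vehicle hypothalamus and 0.19 ± 0.42 in vehicle thyroid. Neither passed. The intervals ran from -0.56 to 1.16 and from -0.66 to 1.03, and both include the 0.71 found between the 2 kinds of vehicle well in pituitary.

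The Arpc4 level also varied between libraries of like barcodes, a description made after the values were seen. In the 12 vehicle libraries of hypothalamus it ran from 701 to 1789 CPM. On the same scale, vehicle libraries numbered 1, 2, 4, 5, 6 and 10 held 225 to 305 CPM in pituitary and 1433 to 1789 CPM in hypothalamus. Those numbered 7, 8, 11 and 12 held 112 to 141 and 701 to 828 CPM. Number 3 was high in pituitary only (225 and 766 CPM), and number 9 in hypothalamus only (154 and 1504 CPM). In thyroid the numbers high in hypothalamus held 832 to 1124 CPM and the others 510 to 635 CPM. In liver, where 9 vehicle libraries were deep enough, number 10 was low (66.8 CPM), as were 3, 7, 8 and 12 (58.9 to 70.1 CPM), while 1, 2, 4 and 5 held 105 to 183 CPM. Pituitary and hypothalamus use different barcodes for the same number, and whether a number stands for 1 rat is not given in the labels. Arpc4 averaged 1255 ± 431 CPM in vehicle hypothalamus and 950 ± 379 CPM with vancomycin, all at 1 G or C base. In thyroid at 1 base it averaged 804 ± 241 and 606 ± 245 CPM (n = 12 in each of these groups). In liver at 5 bases it averaged 64.2 ± 5.15 (n = 4) and 68.2 ± 8.00 CPM (n = 10). At 1 base it averaged 1572 CPM with PFOS and 2086 CPM with both compounds in hypothalamus, and 892 and 1303 CPM in thyroid. These treatment differences were not tested. How much of the pituitary Arpc4 difference goes with barcode and how much with library number was not tested.

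**Figure D5:**
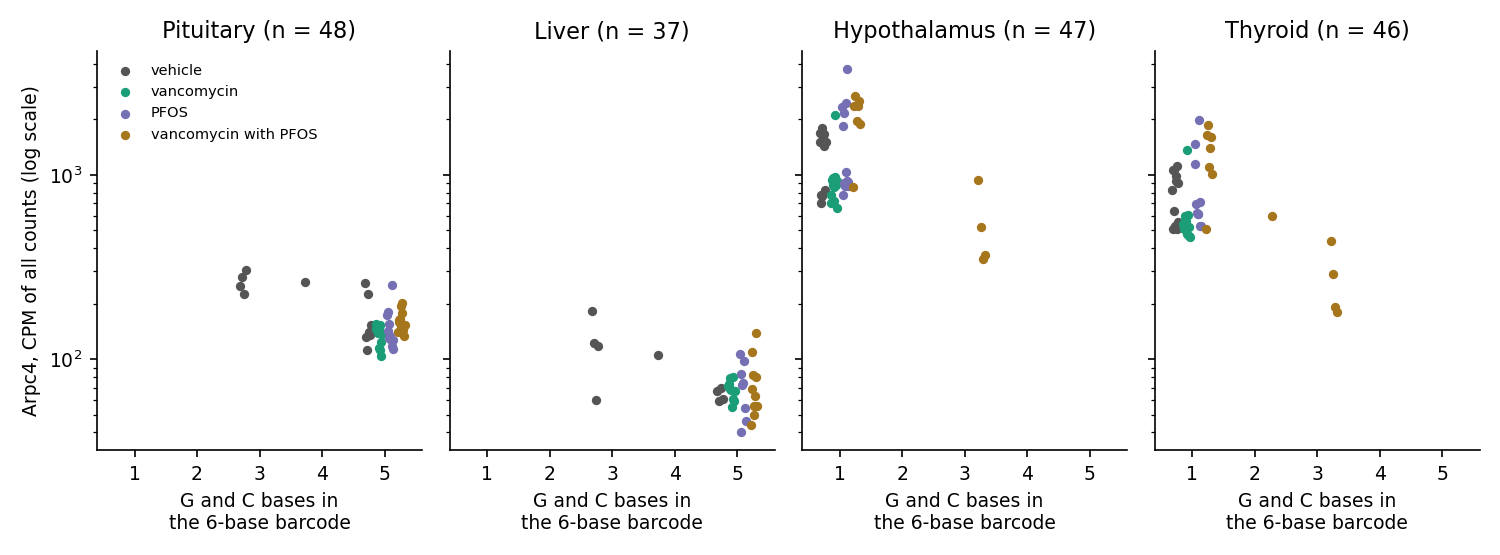
Arpc4 in each library of at least 100000 counts against the number of G and C bases in its 6-base barcode, in CPM of all counts on a log axis, by tissue and treatment. Within vehicle pituitary, wells with 3 bases average 265 CPM and those with 5 average 166 CPM, and hypothalamus and thyroid libraries with 1 base spread over 664 to 3761 and 461 to 1998 CPM.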

How the data were processed

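The authors deposited whole-number counts per gene and library for 17483 genes, with no normalization apparent from the values. BWA 0.7.4.4 and the build rn6 are listed, per the submitters' processing notes, and how molecules were counted is not given in the sources used here. The 48 pituitary libraries were fitted together, 4 treatments in 1 model, with edgeR 4.0.16 in R 4.3.3: filterByExpr at a minimum count of 10, TMM scaling (trimmed mean of M values) and the robust quasi-likelihood F test. The Benjamini-Hochberg procedure ran across each comparison's tested genes, with a threshold of 0.05, and standard errors and 95% intervals come from the F test. CPM are counts per 1000000 of the TMM-scaled library, and shares, list sums and levels set across tissues use the whole count. Levels are mean ± SD, and log2 differences are given ± SE. The fit was tested on simulated counts. Depth was compared by permutation (100000 resamples).

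Genes named are those called, the 10 of smallest p, set pituitary genes and up to 4 members of each of 30 lists by p-value. Necap1, Mrpl51, Cisd2 and Trim35 were chosen after their values were seen. Members, lists and tests were chosen with earlier results of these data known. Of the lists, mitochondrially encoded genes had no name in the table. Alternatives were no filter, DESeq2 1.42.0, its size factors, limma 3.58.1 voom, a minimum depth of 500000, covariates for depth and barcode, thinning, the well column, only 2 groups, scaling without hormones, and leaving out wells P1 to P5 or each library. RefSeq names (GRCr8) served for neighbours only. Counting error limits rare transcripts: at the lowest total of 258869 among the 24 libraries, 1 count is worth several CPM.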

Additional observations from a re-analysis of the deposited data

Results flagged for a closer look

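In vehicle wells P6 to P12, library P7 stood far from the other 6 for 2 hormones and 1 granin. Pomc was at 33854.5 CPM there, and the gap to the next library was 0.584 of the range of the 7 values. Fshb was at 1508 CPM, with a gap of 0.785 of the range. Chga was at 1040 CPM, with a gap of 0.825 of the range, and was searched after its values had been seen. P7 was also the deepest vehicle library, with 948968 counts. Total counts, Arpc4, the hormones and Chga were searched in vehicle wells P6 to P12 and P1 to P5, 20 groups of 7 or 5 libraries. The vancomycin and PFOS-treated libraries were not searched. For independent groups of normally distributed values, chance would put about 1 in 20 past the limit. The search used CPM without a log scale, and the values flagged all came from P7, so that rate need not hold for them. Without P7, the vancomycin difference was 0.16 for Pomc, 0.24 for Fshb and 0.13 for Chga on the log2 scale, against -0.20, -0.07 and -0.28 with it, and none of these passed the test.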

How the results depend on the processing

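The 1 gene called in vancomycin against vehicle became 0 without wells P1 to P5, with no filter on low counts, at a minimum depth of 500000 counts, with log2 depth as a covariate, after thinning, with only the 2 groups in the fit and with the barcode's G and C bases as a covariate. It was 2 with voom and quality weights, where Srebf2 joined Arpc4. It stayed at 1, Arpc4, with DESeq2, DESeq2 size factors, the well column as a factor and scaling without the hormones. Leaving out each of the 24 libraries in turn gave 0 to 2 calls, with 0 in 10 fits and Arpc4 called in 14. Against P6 to P12 and in PFOS-treated rats the count was 0 under every alternative run. For the interaction it was 0 too, except for 1, Arpc4, without PFOS library P33. Leaving out each of the 24 PFOS-treated libraries, which gave 0 to 1 calls, was added after seeing the data. The 73 calls between the 2 kinds of vehicle well became 13 at a minimum depth of 500000 counts, where 1 library stood against 2 and was assumed to vary like the other groups, and stayed within 1.5 times otherwise. The cause of these changes was not tested. Arpc4 kept its direction in all settings, between -0.33 without P1 to P5 and -0.72 without P12. No paired analysis was possible because the labels number the libraries of the compared groups separately, P1 to P12 and P13 to P24.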
